A study of Mus musculus with 57 samples.

Results

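Interferon-stimulated genes are the genes that cells switch on when interferon, a cytokine of the antiviral and immune response, binds its receptor. A list of 39 of them was followed here in mouse liver. They were chosen by symbol, and each symbol matched 1 of the 54307 Ensembl gene IDs in the table. All 39 had enough counts to be tested in every comparison that used all mice of its groups. The data are bulk RNA-seq of 57 livers from wild-type male C57BL/6JJcl mice, aged 6 weeks at the start, acclimatised for 1 week, fasted for 12 h, dosed once and killed 24 h later. By gavage, 13 mice received 0.5% methylcellulose (Ctrl), 4 alpha-naphthyl isothiocyanate (ANIT), 6 acetaminophen (APAP), 7 4,4'-methylene dianiline (MDA) and 5 thioacetamide (TAA). By intraperitoneal injection, 2 received saline (CIP), 7 carbon tetrachloride (CCl4) and 4 galactosamine (GAL). By tail vein, 2 received saline (CIV) and 7 the T-cell-activating plant lectin concanavalin A (ConA). The labels give no dose of any compound. They also name corn oil as a vehicle, which no control mouse received, so for a compound given in corn oil the effects of compound and vehicle cannot be told apart.

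Interferons reach these genes by 2 routes. Type I interferons (interferon alpha and beta) signal through Ifnar1 and Ifnar2 to a complex that holds Stat2 and Irf9 and binds the interferon-stimulated response element (ISRE). Interferon gamma, made mainly by T cells and natural killer cells, signals through Ifngr1 and Ifngr2 to the gamma-activated site (GAS) and raises Irf1, itself a factor that binds ISRE-like sites. In liver, hepatocytes, Kupffer cells and endothelial cells all respond to interferon. The members were divided by textbook role. The type I class holds 10 genes, namely the ubiquitin-like modifier Isg15, Ifit1, Ifit2, Ifit3 and Ifit3b, whose proteins bind foreign RNA, and the oligoadenylate synthetase family Oas1a, Oas2, Oas3, Oasl1 and Oasl2. The interferon gamma class holds 10 genes, namely the guanylate-binding proteins Gbp2 to Gbp7, the immunity-related GTPases Irgm1, Irgm2 and Iigp1, and the transcription factor Irf1. The other members are 10 antiviral genes, 6 sensors and transcription factors, and the immunity-related GTPases Igtp, Tgtp1 and Tgtp2. Many members answer to both kinds of interferon, so the classes are a convention.

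The 2 elements can be seen in the promoters of members from both classes. RefSeq promoter sequences (GRCm38.p6, 250 bases before to 50 after the start site) were given for 31 of the 39 members. The letters searched were GAAANNGAAA or its complement TTTCNNTTTC for the ISRE, and TTCNNNGAA, which reads the same on both strands, for the GAS. The windows below are shown because they represent an ISRE alone (Isg15, Ifit1, Rsad2, Oas3, Gbp2), a GAS followed by an ISRE (Igtp, Irgm2, Tgtp2) and a GAS alone (Irf1). Each is printed 5′ to 3′ along the gene's strand, with matching letters in capitals.
Isg15 (chr4:156200860-156200911, minus strand): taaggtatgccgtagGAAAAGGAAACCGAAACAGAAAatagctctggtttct
Ifit1 (chr19:34640770-34640828, plus strand): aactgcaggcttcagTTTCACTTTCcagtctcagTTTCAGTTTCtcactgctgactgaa
Rsad2 (chr12:26456548-26456587, minus strand): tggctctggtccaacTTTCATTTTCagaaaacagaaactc
Oas3 (chr5:120777710-120777749, minus strand): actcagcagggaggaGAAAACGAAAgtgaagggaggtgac
Gbp2 (chr3:142620589-142620628, plus strand): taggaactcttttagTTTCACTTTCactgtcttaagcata
Igtp (chr11:58199496-58199546, plus strand): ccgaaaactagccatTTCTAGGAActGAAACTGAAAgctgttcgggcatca
Irgm2 (chr11:58214887-58214937, plus strand): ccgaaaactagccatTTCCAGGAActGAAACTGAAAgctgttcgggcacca
Tgtp2 (chr11:49064258-49064308, minus strand): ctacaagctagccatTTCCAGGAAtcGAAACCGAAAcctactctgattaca
Irf1 (chr11:53769909-53769947, plus strand): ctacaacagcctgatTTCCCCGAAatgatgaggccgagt

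In Isg15, 3 matches to the ISRE overlap in 1 run of bases. Of the 31 members with a promoter, 20 (64.5%) held an ISRE match, against 3.99% of all 27025 genes with an entry. A GAS match stood in 12 (38.7%), against 9.55%, and both in 8 (25.8%), against 0.614%. In Igtp, Irgm2, Tgtp1 and Tgtp2 the ISRE began 11 bases after the start of the GAS. The windows of Igtp and Irgm2 are identical at 49 of 51 bases and lie near each other on chromosome 11. An ISRE match was found in 6 of 9 type I class genes and in 6 of 7 interferon gamma class genes with an entry, and a GAS match in 2 of 9 and 4 of 7, so the ISRE letters stood in both classes and so did the GAS letters. Oasl1, Oasl2, Irf7, Irf9, Ifi44, Xaf1 and Cmpk2 held neither motif in this window. A match is a description of the letters and not evidence of binding.

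Levels are given as CPM, counts relative to the TMM-scaled library size. A gene is called at a Benjamini-Hochberg adjusted p under 0.05 in edgeR's quasi-likelihood test over all genes tested, and errors on log2 fold changes are standard errors (SE). Totals ran from 13826343 to 35075809 estimated counts per liver, and mitochondrial transcripts from 5.11% to 39.3% of the total. The share was highest after ConA, at a median of 24.4%, against 6.79% and 25.4% in its 2 saline mice. Hepatocyte markers (Alb, Apoa1, Ttr, Cps1, Serpina1a) were abundant in every group, as the labelled tissue requires, with summed levels of 20300 to 124000 CPM. In bulk tissue, fewer cells of a type and less RNA per cell cannot be told apart. The labels do not say that mice of a group were dosed or processed separately, so p-values measure the spread between these samples.

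**Figure D1:**
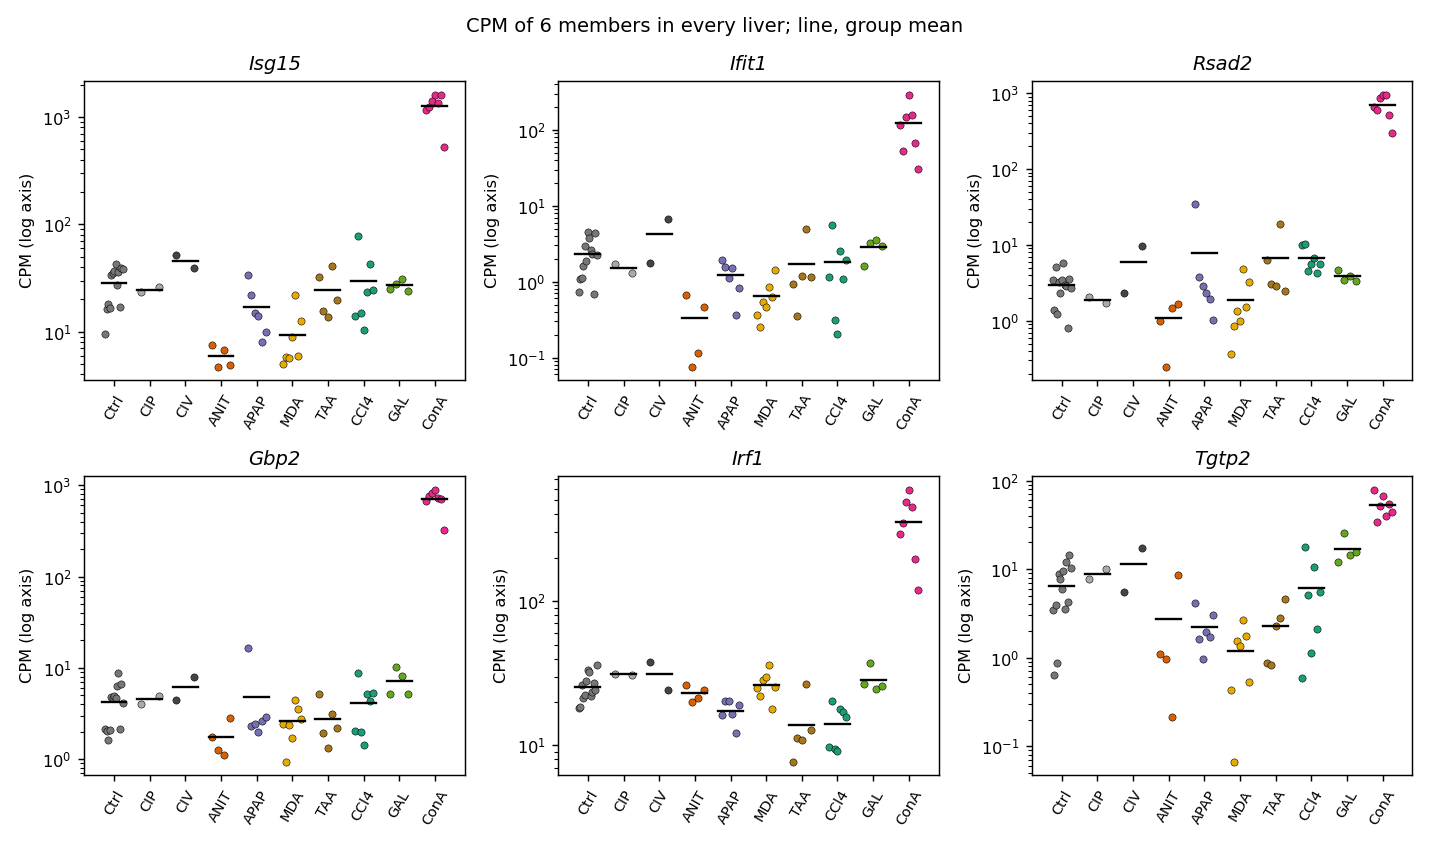
CPM on a log axis of Isg15, Ifit1, Rsad2, Gbp2, Irf1 and Tgtp2 in each of 57 livers, by group; points are mice and lines are group means. All 7 ConA mice lie above every other liver for these genes, and the 4 ANIT mice lie below every Ctrl mouse for Isg15 (at most 7.5 against at least 9.48 CPM).

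ConA raised most members, of both classes, and no member passed the test in the other direction. In the 2 saline mice, Isg15 (ENSMUSG00000035692) measured 39.5 and 52.3 CPM, and after ConA 522, 1168, 1226, 1351, 1400, 1612 and 1615 CPM. Every treated liver lay above both controls, and the mouse numbered 12 was the lowest of the treated mice. The log2 fold change was 4.84 ± 0.49, adjusted p = 9.62e-05. Rsad2 (viperin, an enzyme that makes a chain-terminating nucleotide, ENSMUSG00000020641) went from 2.36 and 9.58 CPM to 296, 524, 593, 659, 869, 955 and 960 CPM, a log2 fold change of 6.92 ± 0.77 (adjusted p = 0.000162). Its groups did not overlap, although its saline mice differed from each other more than those for Isg15.

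Members of the interferon gamma class rose too. Gbp2 (ENSMUSG00000028270) measured 4.48 and 7.85 CPM with saline, and 320, 671, 715, 733, 760, 819 and 891 CPM after ConA, with a log2 fold change of 6.88 ± 0.52 and an adjusted p of 2.77e-05. Irf1 (ENSMUSG00000018899) was at 24.4 and 37.9 CPM against 119, 195, 293, 349, 448, 487 and 591 CPM, a rise of 3.54 ± 0.62 on the log2 scale (adjusted p = 0.00192). For both genes the lowest treated value was again that of mouse 12, which had the lowest level of its group in 29 of the 39 members. Mouse 5 was highest in 23.

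With ConA, 29 of 39 members were called, 29 higher and 0 lower, where 34.2% of all 14132 genes tested were called and 16.8% were called higher. In 28 members all 7 treated mice lay above both saline mice. The share of all genes separated in this way was not counted, and having only 2 controls makes such separation easier. The median log2 fold change was 3.94 over the type I class (8 of 10 called), 3.56 over the interferon gamma class (9 of 10) and 0.03 over all genes. With the other antiviral members, Irf7, Irf9, Stat2, Ifih1 and Ddx58 added to the type I class, its median was 1.90. With Igtp, Tgtp1, Tgtp2 and Irf8 added, the interferon gamma median was 3.56. The guanylate-binding proteins spanned 2.13 ± 0.64 (Gbp7) to 6.88 (Gbp2), with Gbp5, which promotes inflammasome activity, at 5.09 ± 0.65. Among antiviral effectors, the GTPase Mx1 rose by 5.74 ± 1.00, Cmpk2, a nucleotide kinase that neighbours Rsad2, by 4.78 ± 0.64, and the Isg15-removing protease Usp18 by 2.89 ± 0.45. Irf8, a factor of myeloid cells, rose by 4.73 ± 0.55, and Irf7, the factor that amplifies interferon alpha production, by 1.90 ± 0.36.

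Not all members were called, although with 2 saline mice a missing call does not show an unchanged level. The 5 with negative estimates were Ifi27 (-0.49 ± 0.40), Irgm2 (-0.24 ± 0.32), Oas2 (-0.22 ± 0.37), Bst2 (-0.21 ± 0.30) and Oas3 (-0.10 ± 0.35), and none passed the test. Irf9 (0.19 ± 0.28), Ddx58, which encodes the RNA sensor RIG-I (0.60 ± 0.44), Stat2 (1.00 ± 0.41), Ifi44 (1.51 ± 0.58) and the RNA sensor Ifih1 (1.60 ± 0.69) did not pass it either. Within the Oas family, Oasl1 rose by 3.85 ± 0.57, Oas1a by 1.16 ± 0.41 and Oasl2 by 0.91 ± 0.28, while Oas2 and Oas3 were not called. The Oas1a call, at an adjusted p of 0.0494, was lost without ConA mouse 2, 3, 5, 11 or 12 and without either saline mouse. A fit without 1 saline mouse, here and with CCl4 and GAL, has 1 control, which is assumed to vary like the treated mice, so a call lost there does not by itself show a weaker effect. Oasl2, Gbp7 and Ifit2 lost theirs without saline mouse 7, and Ifi35 (1.16 ± 0.36) without saline mouse 8. With library totals alone in place of TMM scaling the count was 23 (34.3% of all genes). Iigp1 (1.78 ± 0.57) lost its call without ConA mouse 2, 4, 5 or 8 or saline mouse 7, in which it stood well below saline mouse 8 (30.9 and 141 CPM over the pair).

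Igtp and Irgm2, whose promoter windows above are nearly the same, are set side by side here. Igtp (ENSMUSG00000078853) measured 37.5 and 57.3 CPM with saline, and 65.8, 88.6, 104, 117, 139, 173 and 199 CPM after ConA, without overlap (1.47 ± 0.44, adjusted p = 0.0252). The call was not made with only 1 of the 2 saline mice as control. Irgm2 (ENSMUSG00000069874) stood at 30.0 and 36.0 CPM against 17.3, 20.5, 22.6, 25.3, 26.0, 27.4 and 48.9 CPM, where all but 1 treated mouse lay below both controls (adjusted p = 0.591). These 2 controls were high among vehicle mice, since Irgm2 in Ctrl had a median of 17.7 and a maximum of 32.8 CPM. Whether these 2 genes differ in response was not tested. Oas3, with an intact ISRE match, likewise stayed between 1.45 and 3.22 CPM after ConA, around the 2.43 and 2.48 CPM of its controls. Across the 31 members with a promoter, those called higher with ConA were 6 of 8 with both motifs, 8 of 12 with the ISRE alone, 4 of 4 with the GAS alone and 5 of 7 with neither.

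**Figure D2:**
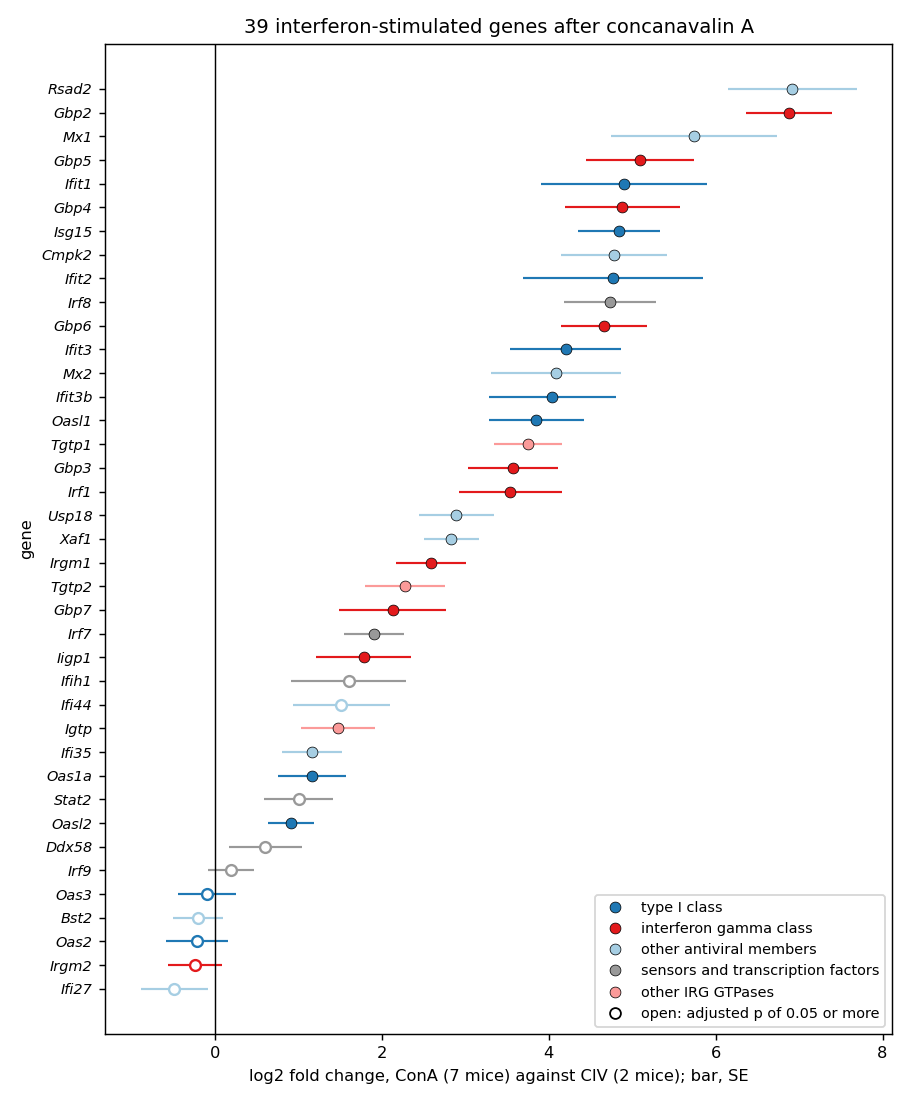
Log2 fold change of each of the 39 members, ConA (7 mice) against intravenous saline (2 mice), with SE bars, sorted by size and coloured by class; open points have an adjusted p of 0.05 or more. The interferon gamma class runs from 6.88 (Gbp2) to -0.24 (Irgm2) and the type I class from 4.90 (Ifit1) to -0.22 (Oas2).

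The interferons themselves were near the limit of detection. Ifng, which encodes interferon gamma, was at 0 in both saline mice and at 0.443 to 3.23 CPM in 7 of 7 ConA mice. Against a floor of 3 estimated counts over the saline group's depth, this is at least 21.4-fold higher. Ifnb1, which encodes interferon beta, was above 0 in 5 of 7 ConA mice, with a mean of 0.461 CPM, and at 0 in both saline mice, at least 4.73-fold higher by the same floor. Ifna1, Ifna2, Ifna4, Ifnl2 and Ifnl3 were listed at 0 in all 57 livers. Of the other groups, CCl4 had Ifng above 0 in 5 of 7 mice (at most 0.121 CPM), and Ctrl in 6 of 13 (at most 0.463 CPM), while ANIT and APAP had it in none.

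Of 45 further pathway genes, 36 were tested with ConA and 25 called (69.4%, against 34.2% of all genes), 22 higher and 3 lower. Among 10 other interferon gamma targets 9 rose, including Cxcl10 (7.86), Cxcl9 (7.48), Cd274 (6.14), which encodes PD-L1, and the antigen-processing genes Tap1 (3.08) and Psmb9 (1.17), all on the log2 scale. Ciita, the master regulator of MHC class II, stood at -0.91 and was not called. The receptor chains Ifngr1 (1.92) and Ifnar2 (0.86) rose. So did the feedback inhibitors Socs1 (7.32) and Socs3 (5.08). Mavs (-2.29), the adaptor below the RNA sensors, Irf3 (-1.54) and Tyk2 (-1.19) fell.

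Markers of most other cell types listed moved with ConA as well. All 5 Kupffer cell markers fell, from a summed 277 and 280 CPM to 22.9 to 49.8 CPM. Neutrophil markers (4 of 5 higher) went from 7.81 and 8.84 CPM to 126 to 287 CPM. Cholangiocyte markers (2 of 4 higher) went from 3.97 and 7.01 CPM to 30.1 to 68.3 CPM. Of 4 stellate cell markers 2 fell, Lrat and Colec11, although the sum, 125 CPM or more, overlapped the 79.9 and 196 CPM of saline. Sinusoidal endothelial cell markers divided, with Lyve1 and Pecam1 higher and Clec4g and Fcgr2b lower of 5. Of 4 monocyte markers tested Chil3 and Fn1 rose, and of 5 hepatocyte markers Ttr fell. No T cell marker of 4 tested and no natural killer cell marker of 2 tested was called. T cell sums were 2.30 to 8.47 CPM against 3.13 and 3.17 CPM, and natural killer cell sums 1.83 to 11.5 against 3.07 and 4.60 CPM. The part of cell composition in the rise of the members was not tested.

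The rise with ConA differed from the response to each other compound. The contrast of (ConA minus CIV) with (compound minus its vehicle) called 34 members for ANIT, 30 each for APAP, MDA and TAA, 24 for CCl4 and 22 for GAL, each of them higher with ConA. Among 18781 genes the shares called were 21.2%, 16.6%, 24.2%, 9.06%, 16.8% and 16.8%, in that order, and the shares called higher 8.17%, 4.73%, 8.8%, 3.12%, 6.69% and 7.84%. For GAL the count depended on the scaling and was 10 with library totals alone (38.2% of all genes). These contrasts share the ConA and CIV mice. Gbp2 differed by 6.15 ± 1.01 (GAL) to 8.12 ± 1.04 (ANIT) on the log2 scale. Against TAA the members not called were Oas1a, Oas2, Oas3, Oasl2, Bst2, Ifi27, Ifi44, Irf9 and Iigp1.

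**Figure D3:**
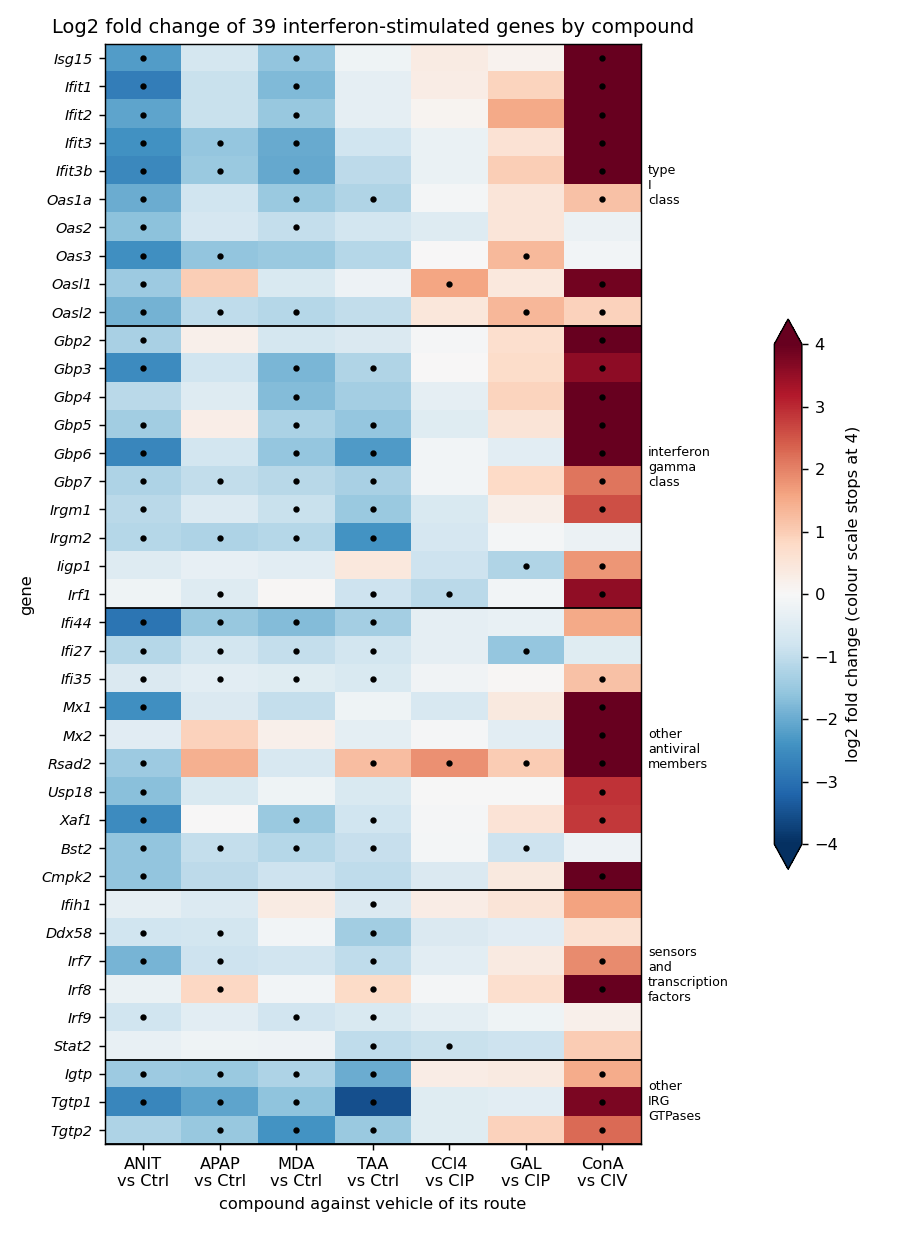
Log2 fold change of the 39 members (rows, by class) for each compound against the vehicle of its route (columns), blue lower and red higher, with a dot where the adjusted p is under 0.05. The ConA column is red in 34 rows and the ANIT column blue in all 39, while CCl4 and GAL hold 4 and 6 dots.

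ANIT, which injures bile ducts, lowered most members against all Ctrl mice. All 39 estimates were negative and 31 were called lower, 0 higher, where 28.2% of 14072 genes were called and 14.2% were called lower. The median was -2.18 over the type I class (10 of 10 called), -1.19 over the interferon gamma class (7 of 10) and -0.01 over all genes. Isg15 stood at 4.74, 4.87, 6.74 and 7.5 CPM after ANIT. In the 13 Ctrl mice the lowest, median and highest values were 9.48, 34.0 and 43.0 CPM, so the groups did not overlap (-2.25 ± 0.37, adjusted p = 0.000265). Bst2, the tetherin that holds budding virus at the cell surface (ENSMUSG00000046718), stood at 79.5, 82.0, 89.3 and 139 CPM against 232 to 362 CPM in Ctrl, again without overlap (-1.57 ± 0.15, adjusted p = 1.99e-06). Ifit1 (-2.78 ± 0.61), Gbp6 (-2.61 ± 0.54) and Xaf1 (-2.51 ± 0.41) had the largest falls among members without overlap. Gbp4, Iigp1, Irf1, Mx2, Ifih1, Irf8, Stat2 and Tgtp2 were not called.

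The Ctrl mice were themselves not uniform, and this bears on ANIT first. The 4 numbered 1 to 4 had a lower mean than the 9 with higher numbers in 39 of 39 members, and in 10 members the ranges did not overlap. Neither was counted over all genes. This division was chosen after an earlier look at these data. Mitochondrial transcripts were 15.5% to 21.8% of the total in mice 1 to 4, and 7.48% to 14.3% in the others except mouse 7 (21.7%). Irf7 (ENSMUSG00000025498) stood at 23.5, 25.2, 25.7 and 31.1 CPM in mice 1 to 4 and at 34.3, 47.5, 58.1, 63.4, 63.6, 66.5, 71.4, 73.9 and 88.9 CPM in the others (-1.24 ± 0.20, adjusted p = 0.00749). The lowest of the others was mouse 16, whose mean log2(CPM + 1) over the 39 members was 2.76, inside the 2.57 to 2.77 of mice 1 to 4 and below the 3.43 to 3.77 of the remaining 8. Between the ranges 18 of 39 members were called, all lower in mice 1 to 4, where 2.33% of 13764 genes were called and 1.73% were called lower. The count was 7, 8, 10 and 7 without Ctrl mouse 1, 2, 3 or 4 (0.973% to 1.4% of all genes), 31 with library totals alone (5.57%) and 28 with DESeq2 (4.75%), all lower in mice 1 to 4. The largest differences were in Oas3 (-2.44 ± 0.31), Gbp4 (-2.40 ± 0.38) and Tgtp1 (-2.24 ± 0.37). Kupffer cell markers differed as well, with 4 of 5 lower and summed levels of 151 to 187 CPM in mice 1 to 4 against 258 to 437 CPM. Natural killer cell markers (1 of 2 tested lower) summed to 0.921 to 3.35 against 2.74 to 7.04 CPM. Of 4 monocyte markers tested 2 were lower. Of 4 neutrophil markers 0 passed the adjusted test and 4 an unadjusted p under 0.05, all lower in mice 1 to 4. All 5 hepatocyte markers had higher estimates in mice 1 to 4, with 0 called and 2 at an unadjusted p under 0.05. Hepatocyte sums were 80100 to 114000 CPM there against 52800 to 76900 CPM. The part of these markers, or of the mitochondrial share, in the difference was not tested.

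All 4 ANIT mice were numbered 1 to 4. With the number range as a covariate 10 members were called lower (19.1% of all genes called), namely Isg15, Ifit1, Ifit3b, Oas1a, Gbp6, Irgm1, Irf7, Xaf1, Bst2 and Ifi27. Against Ctrl mice 1 to 4 alone the count was 7 of 34 members with enough counts (13.7% of all genes called), and the class medians were -0.94 for type I and -0.20 for interferon gamma. Summed natural killer cell markers were 0.866 to 1.32 CPM with ANIT and 0.921 to 3.35 CPM in Ctrl mice 1 to 4. Kupffer cell markers summed to 164 to 241 CPM with ANIT and 151 to 187 CPM in Ctrl mice 1 to 4, but the markers went both ways: Marco stood at 23.6 to 98.0 against 2.99 to 4.16 CPM, and Clec4f at 34.7 to 101 against 84.8 to 111 CPM. Against all Ctrl mice, 2 of 2 natural killer cell, 2 of 3 B cell and 2 of 4 stellate cell markers tested were lower, with 1 of 5 hepatocyte markers (Ttr). Of 4 neutrophil markers 1 was higher (Retnlg). Kupffer (Marco, Clec4f), monocyte (Fn1, Ly6c2), sinusoidal endothelial (Lyve1, Stab2) and cholangiocyte (Sox9, Krt7) markers had 1 call higher and 1 lower each, named in that order. Their part was not tested. Of the 31 calls made with all Ctrl mice, 21 were not made with the covariate, and none of these estimates changed sign. Among all 39 members, 34 estimates were negative and 5 positive with the covariate. Against Ctrl mice 1 to 4 alone, 29 of the 34 tested were negative and 5 positive.

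**Figure D4:**
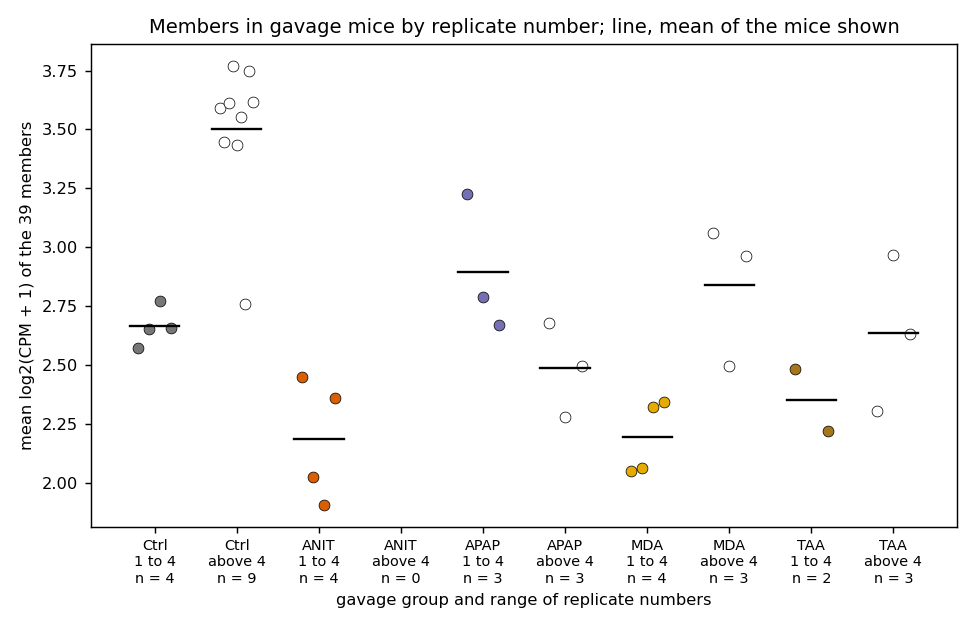
Mean log2(CPM + 1) of the 39 members in each gavage mouse, split by replicate number (filled, 1 to 4; open, above 4); lines are means of the mice shown. Ctrl mice 1 to 4 sit at 2.57 to 2.77 and 8 of the 9 others at 3.43 to 3.77; the 4 ANIT mice lie between 1.91 and 2.45, below every Ctrl mouse.

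MDA, another bile duct toxicant, lowered 24 members and raised 0, where 33.8% of 13522 genes were called and 16.4% were called lower. The class medians were -1.52 (type I, 8 of 10 called) and -1.11 (interferon gamma, 7 of 10), against 0.03 over all genes. Bst2 stood at 87.7, 90.4, 122, 136, 138, 165 and 171 CPM, below all 13 Ctrl mice (-1.15 ± 0.13, adjusted p = 1.39e-06). Tgtp2 (-2.40 ± 0.56), Ifit3b (-2.06 ± 0.39) and Ifit3 (-2.03 ± 0.40) fell furthest, with ranges that overlapped those of Ctrl. The MDA mice also differed by number. In 37 of 39 members the mean was lower in mice 1 to 4 than in mice 7, 8 and 12, and in 17 members the 2 sets did not overlap. Neither was counted over all genes. Mitochondrial transcripts were also 16.4% to 24.3% of the total in the first set and 9% to 16.1% in the second. Irf7 was at 11.4, 14, 18.5 and 19.4 CPM in the first and 34.5, 50.3 and 64.6 CPM in the second, a difference that was not tested. Other groups did not all divide this way: mice 1 to 4 had the lower mean in 29 of 39 members with TAA, in 9 of 39 with APAP and in 6 of 39 with ConA. With the range as a covariate 26 members were called (34.6% of all genes). Within mice 1 to 4 the count was 11 of the 33 with enough counts (10.4% of all genes), and the interferon gamma median there was -0.42. Above 4 the count was 17 (20.6% of all genes). Markers of other cells moved as well: 2 of 2 B cell, 3 of 4 stellate cell, 1 of 2 natural killer cell and 1 of 3 T cell markers tested were lower, with 2 of 5 hepatocyte markers (Ttr, Cps1), and 2 of 4 neutrophil markers higher. Marco, Fn1, Lyve1 and Sox9 were higher as well, and Clec4f and Stab2 lower. Natural killer cell markers summed to 0.366 to 2.48 CPM and neutrophil markers to 8.45 to 131 CPM, against 0.921 to 7.04 and 2.11 to 60.8 CPM in Ctrl. Their part was not tested.

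Set side by side, ANIT and MDA did not differ in any member by edgeR's quasi-likelihood test. At an unadjusted p under 0.05 4 members differed, DESeq2 called 1, and 0.24% of 18781 genes were called. The estimates for the 39 members ranged from -1.51 to 1.16 with a median of -0.62, so a difference is not shown and is not excluded at these group sizes.

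APAP, which is toxic to hepatocytes around the central vein, lowered 16 members and raised 1, where 31.8% of 13939 genes were called and 14.6% were called lower. The class medians were -0.89 (type I, 4 of 10 called) and -0.54 (interferon gamma, 3 of 10), against 0.07 over all genes. This direction did not hold in both number ranges. Among mice 1 to 4 (3 APAP, 4 Ctrl) the medians were 0.06 (8 type I genes tested) and 0.70 (interferon gamma), and 23 of 37 members tested had positive estimates, while among mice above 4 (3 APAP, 9 Ctrl) they were -1.50 and -1.46, with 38 of 39 negative. Igtp stood at 4.77, 5.46, 8.16, 10.4, 10.9 and 11.3 CPM, below all Ctrl mice, whose lowest was 12.1 CPM (-1.50 ± 0.31, adjusted p = 0.000934). Bst2 (-0.94 ± 0.19) and Ifi27 (-0.73 ± 0.14), a mitochondrial and nuclear envelope protein, were also without overlap. Irf8 was the member that rose (0.83 ± 0.24, adjusted p = 0.0109). With library totals alone 9 members were called, 1 of them higher (29.1% of all genes). Neutrophil markers (3 of 4 tested higher, 13.2 to 261 CPM summed against 2.11 to 60.8 CPM) and monocyte markers (3 of 5 higher) moved with APAP. The monocyte sum, 521 to 966 against 371 to 571 CPM, is mostly Fn1 (488 to 867 against 342 to 553 CPM), which hepatocytes also make. Of 5 hepatocyte markers 1 rose and 1, Cps1, fell. Single markers of Kupffer cells (Marco), sinusoidal endothelial cells (Lyve1, Pecam1), stellate cells (Dcn) and cholangiocytes (Sox9) also rose, and Clec4f and Clec4g fell. Their part was not tested.

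One APAP mouse stood apart. In mouse 1, Oasl1 (ENSMUSG00000041827) was at 141 CPM against 4.71 to 10.5 CPM in the other 5, Rsad2 at 34.9 against 1.04 to 3.82 CPM, Gbp2 at 16.5 against 1.97 to 2.92 CPM and Gbp5 at 6.25 against 0.237 to 0.826 CPM. The feedback inhibitor Socs1 was at 22.4 CPM in this liver against 0.0448 to 0.384 CPM, and the interferon gamma target Cxcl9 at 71.6 against 1.00 to 7.76 CPM. Yet the same mouse was the lowest of its group in 11 members, among them Igtp (4.77 CPM), Irgm2 (2.98 CPM) and Tgtp1 (1.70 CPM). Its Ifng was at 0. Without it the interferon gamma class median was -1.07. This mouse is among those numbered 1 to 4. By number, 30 members were lower and 1 higher with APAP among mice above 4, where 20.2% of all genes were called. Among mice 1 to 4 the 1 member called was Irf8, which was higher, where 6.28% of all genes were called. The difference between the ranges was not tested.

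TAA, a hepatotoxicant activated by the liver, lowered 21 members and raised 2, and it called 50.5% of all 14360 genes, so the share of members called (23 of 39) lies near that of all genes. Lower calls made up 24% of all genes. Within the interferon gamma class 7 of 10 were lower (median -1.34), and within the type I class 1 of 10, Oas1a (median -0.76), beside 0.03 over all genes; the difference between the classes was not tested. Tgtp1 (ENSMUSG00000078922) fell furthest, to 0.705, 0.810, 1.33, 1.86 and 1.86 CPM against 2.02 to 33.0 CPM in Ctrl (-3.53 ± 0.61, adjusted p = 8.6e-05). Irgm2 stood at 1.29, 2.97, 3.21, 3.76 and 4.19 CPM, below every Ctrl mouse (-2.39 ± 0.39, adjusted p = 4.3e-05), and Igtp fell by 1.99 ± 0.32 on the log2 scale. By promoter motif, 8 of 8 members with both were lower, 5 of 12 with the ISRE alone, 2 of 4 with the GAS alone and 4 of 7 with neither. With ANIT the counts in the same order were 7 of 8, 10 of 12, 2 of 4 and 7 of 7, where 14.2% of all genes were lower. With APAP they were 6, 4, 2 and 3 (14.6%), and with MDA 8, 6, 2 and 4 (16.4%). These comparisons share the Ctrl mice, and the motif groups were not tested against each other.

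The members that rose with TAA were Rsad2 (1.24 ± 0.43, adjusted p = 0.0215) and Irf8 (0.75 ± 0.25). Rsad2 stood at 2.46, 2.85, 3.09, 6.36 and 19.1 CPM, and the groups overlapped. Without TAA mouse 7, the highest, Rsad2 was at 0.35 and Irf8 at 0.62, and neither was called. The members called were 8 within mice 1 to 4 (2 TAA mice, 19.4% of all genes) and 26 above 4 (47.4%), with type I medians of -0.25 and -0.69 and interferon gamma medians of -1.12 and -1.56. Kupffer cell markers summed to 224 to 248 to 266 CPM (lowest, median, highest) after TAA, within the Ctrl range of 151 to 437 CPM, although Marco was higher (16.4 to 77.6 against 2.99 to 23.6 CPM) and Clec4f lower (47.6 to 102 against 84.8 to 209 CPM). Neutrophil markers, all 5 higher, summed to 157 to 813 CPM against 2.11 to 60.8 CPM. Natural killer cell markers, both of those tested lower, summed to 0.575 to 1.74 CPM against 0.921 to 7.04 CPM. B cell (3 of 3 tested), monocyte (3 of 5) and cholangiocyte (2 of 4) markers were higher, and of sinusoidal endothelial cell markers 2 of 5 were higher and 3 lower. Of hepatocyte markers 1 of 5 was higher (Apoa1) and 2 lower (Ttr, Cps1), and of stellate cell markers Dcn was higher and Lrat lower. Their part in the changes was not tested.

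APAP and TAA, set against each other, differed in 2 members, where 9.65% of 18781 genes were called. Irgm1 was 0.94 ± 0.28 higher and Stat2 0.87 ± 0.23 higher with APAP on the log2 scale. With only these 2 groups in the fit the count was 0, and with DESeq2 it was 5.

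Against the 2 intraperitoneal saline mice, CCl4 gave few calls among the members. With 33.5% of 15365 genes called, 4 of 39 members passed, a smaller share than over all genes. Rsad2 stood at 4.32, 4.53, 5.59, 5.69, 6.78, 9.92 and 10.3 CPM against 1.72 and 2.08 CPM (1.84 ± 0.42, adjusted p = 0.00794). Oasl1, at 23.8 to 51.5 CPM against 9.75 and 15.7 CPM, rose by 1.57 ± 0.33, also without overlap. Irf1 fell, from 31 CPM in both saline mice to 9.19, 9.45, 9.67, 15.7, 16.9, 17.9 and 20.2 CPM (-1.09 ± 0.31, adjusted p = 0.0248), and so did Stat2 (-0.90 ± 0.22). The lower calls of Irf1 and Stat2 were lost with library totals alone. Calls were lost without either saline mouse, which leaves 1 control. Leaving out 1 mouse at a time, saline mice included, 18% to 36.2% of all genes were called. The class medians were 0.06 (type I) and -0.41 (interferon gamma), against 0.10 over all genes.

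The CCl4 mice varied widely. Mouse 5 was the highest of its group in 28 members and mouse 8 the lowest in 21. Igtp ran from 6.66 to 57.6 CPM and Tgtp1 from 1.06 to 41.0 CPM, around the 18.1 and 25 CPM of the saline mice for the latter. Against all 17 vehicle mice 9 of 39 members were called, 2 higher and 7 lower, where 53.4% of all genes were called. All 5 hepatocyte markers fell, with sums of 20300 to 31800 CPM against 58500 and 64400 CPM, and 2 of 4 neutrophil markers tested rose, with sums of 10.4 to 72.5 CPM against 5.33 and 5.37 CPM. Of Kupffer cell markers 2 of 5 fell and 1 rose, of monocyte markers 2 of 5 rose and 1 fell, and 2 of 5 sinusoidal endothelial and 2 of 4 stellate cell markers fell. Of 3 plasmacytoid dendritic cell markers tested only Cox6a2 was called (2.20 to 5.72 CPM against 0 and 0.75 CPM), and no more is read from that list. Their part in the members' values was not tested.

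GAL, which depletes uridine nucleotides in hepatocytes, gave 6 calls, 3 higher and 3 lower, where 28.5% of 15509 genes were called. Oasl2 (1.34 ± 0.30), Oas3 (1.3 ± 0.32) and Rsad2 (1.00 ± 0.27) rose. Oas3 stood at 3.27, 3.31, 4.30 and 4.71 CPM against 1.3 and 1.88 CPM. Ifi27 (-1.56 ± 0.31), Iigp1 (-1.21 ± 0.20) and Bst2 (-0.83 ± 0.16) fell, and Bst2 stood at 136, 149, 159 and 167 CPM against 268 and 274 CPM. None of these 6 overlapped with the saline mice. The split depended on the scaling: with library totals alone 22 members were higher and 0 lower, where 41% of all genes were called. The count was 14 without GAL mouse 2, 3 without mouse 4 and 3 without mouse 8. Calls were also lost without either saline mouse, which leaves 1 control. Leaving out 1 mouse at a time, saline mice included, the share of all genes called itself ran from 9.49% to 42.5%. The class medians were 0.74 (type I) and 0.36 (interferon gamma), against 0.08 over all genes, and 1.48 and 1.13 with library totals alone. Hepatocyte markers, all 5 lower, summed to 26400 to 34100 CPM against 58500 and 64400 CPM. Neutrophil markers, 4 of 4 tested higher, summed to 24.8 to 40.3 CPM against 5.33 and 5.37 CPM. Of 5 monocyte markers Ccr2, Chil3 and Plac8 rose and Fn1 fell, and of 5 Kupffer cell markers Marco and Cd5l rose. Their part was not tested.

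In the direct contrast of CCl4 with GAL, where 28.6% of 18781 genes were called, 6 members differed. Ifi27 (1.15 ± 0.27) and Bst2 (0.73 ± 0.23) were higher with CCl4. Ifit2 (-1.44 ± 0.52), Irf1 (-1.01 ± 0.27), Irgm1 (-0.88 ± 0.28) and Irf8 (-0.80 ± 0.30) were lower. The Bst2 difference was not called with library totals alone (0.44).

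The vehicle groups were also compared. By edgeR 0 members differed between intraperitoneal saline and Ctrl, with 0 at an unadjusted p under 0.05, where 0.0131% of 15219 genes were called. Between intravenous saline and Ctrl 0 differed, with 9 at an unadjusted p under 0.05, where 0.0263% of 15199 genes were called, and DESeq2 called 0 in both. Estimates for intravenous saline were positive in 37 of 39 members, with a median of 0.68. Since ConA was set against these 2 mice, it was also compared with all 17 vehicle mice, which called 34 members (68% of all genes) and gave class medians of 4.51 and 4.21.

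The mean log2(CPM + 1) of the interferon gamma class minus that of the type I class is given as a description, without a test. Since levels of different genes are not on 1 scale, its value in a liver has no meaning of its own, and only its difference between groups is read. After ConA it was 1.28 ± 0.09 (SD, n = 7), against 0.61 ± 0.20 in intravenous saline (n = 2), and the lowest ConA mouse (1.10) lay above the higher saline mouse (0.75). The fitted log2 fold changes do not give 1 order of the classes: their mean was 3.49 for interferon gamma and 2.83 for type I, but their median was 3.56 and 3.94. The pseudocount of 1 also understates the rise of genes that were low with saline, such as Ifit2 (0.778 and 5.12 CPM) and Gbp5 (1.34 and 2.36 CPM). In Ctrl it was 0.47 ± 0.16 (n = 13). Against this, ANIT stood at 0.97 ± 0.23 (n = 4), MDA at 0.82 ± 0.35 (n = 7), APAP at 0.63 ± 0.24 (n = 6), with mouse 1 at 1.08, and TAA at 0.13 ± 0.22 (n = 5). The ranges of MDA, APAP and TAA overlapped that of Ctrl (0.21 to 0.76), and so did that of ANIT, whose lowest mouse was at 0.67. CCl4 stood at 0.15 ± 0.28 (n = 7) and GAL at 0.14 ± 0.19 (n = 4), against 0.66 ± 0.02 in intraperitoneal saline (n = 2). All 11 of these treated mice lay below both saline mice.

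**Figure D5:**
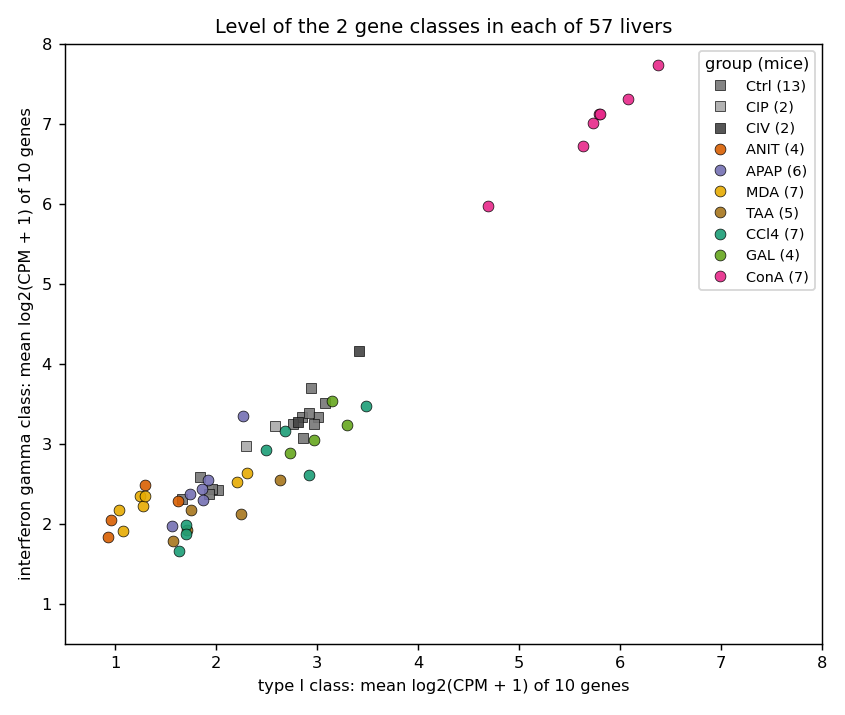
Mean log2(CPM + 1) of the 10 interferon gamma class genes (y) against that of the 10 type I class genes (x) in each liver, squares for vehicles and circles for compounds. The 7 ConA livers stand at 4.69 to 6.37 (x) and 5.97 to 7.74 (y), apart from all others.

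Across the other pathway genes the gavage compounds gave mixed counts. Of those tested, ANIT called 6 of 35 higher and 12 lower, MDA 5 and 10 of 35, APAP 10 and 9 of 35, and TAA 12 and 14 of 36. The shares called in either direction were 51.4%, 42.9%, 54.3% and 72.2%, against 28.2%, 33.8%, 31.8% and 50.5% of all genes. These comparisons share the Ctrl mice and are not independent. The immunoproteasome subunits Psmb8 (log2 fold changes of -1.31 with ANIT, -0.62 with APAP, -1.13 with MDA and -1.08 with TAA) and Psmb9 (-2.20, -1.35, -1.49 and -1.64, in the same order) fell. Socs3, which is also induced by interleukin 6, rose with each (3.41, 3.72, 2.66 and 3.29). CCl4 called 7 higher and 4 lower of 35, and GAL 1 and 4 of 37, shares of 31.4% and 13.5% beside 33.5% and 28.5% of all genes.

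By direction, 23 members were higher with ConA and lower with ANIT, which is 23 of the 29 called with ConA and 23 of the 31 called with ANIT. Over the 13228 genes tested in both comparisons, 120 (0.907%) were higher with ConA and lower with ANIT. With the number range as a covariate for ANIT the count fell to 8 members (Isg15, Ifit1, Ifit3b, Oas1a, Gbp6, Irgm1, Irf7 and Xaf1), beside 56 of the 13228 genes (0.423%). Tgtp1 and Tgtp2, Ifit3 and Ifit3b, and the guanylate-binding proteins have close copies between which reads can be shared, so their separate values are less certain than their joint direction.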

How the data were processed

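RNA was read from 57 livers, 40 of them treated. The deposited table holds estimated counts per Ensembl gene and sample. The submitters' processing notes name Salmon 1.6.0, R 4.1.3 and GRCm39, without saying what each was used for. Across 13043 single-transcript genes, longer transcripts had lower minimum nonzero values (rho -0.76, Spearman), so the values appear scaled by length, and levels are compared only within a gene. Of the gene IDs, 51482 had a symbol.

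The estimated counts deposited by the authors were rounded and tested with edgeR 4.0.16 in R 4.3.3 (quasi-likelihood F-test, TMM scaling, filterByExpr, Benjamini-Hochberg adjustment over all genes tested), using the groups compared. The contrasts between responses and between compounds used 1 fit of all 57 samples. CPM are TMM-scaled over all samples, and class levels are means of log2(CPM + 1), with a pseudocount of 1. limma 3.58.1 and DESeq2 1.42.0 were alternatives. The script was tested on simulated data with 200 changed genes. For ANIT it recovered 84% of 4-fold changes on 13666 genes. With 2 saline mice it recovered 13.8% for ConA (13494 genes), 51.5% for CCl4 (14988 genes) and 1.06% for GAL (14976 genes). Of 2-fold changes it recovered 0%, 5.21% and 0%. Fewer genes were changed there than were called in the data (34.2%, 33.5% and 28.5%), which makes the adjusted threshold stricter. These rates are therefore not those of the fits reported. Few calls with 2 saline mice still do not show few changes.

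Members and lists were chosen with earlier results of these data known, and so was the division of Ctrl by number. All 39 members could be named, with values by mouse for those without overlap and the largest changes. Same-numbered mice were not treated as pairs.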

Additional observations from a re-analysis of the deposited data

Results flagged for a closer look

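In 140 sets of values from 18 members and the class means, 17 held a mouse far from the others of its group. The rate that chance gives was not measured for these group sizes. APAP mouse 1 was high for Oasl1 (141 CPM, next 10.5), Rsad2 (34.9, next 3.82), Gbp2 (16.5, next 2.92) and Gbp5 (6.25, next 0.826). TAA mouse 7 was high for Ifit1 (4.98 CPM, next 1.17), Rsad2 (19.1, next 6.36) and Irf1 (26.5, next 12.8), and TAA mouse 1 for Bst2 (235, next 143). CCl4 mouse 5 was high for Ifit3 (19.2 CPM, next 7.83) and Gbp5 (2.87, next 1.31). ConA mouse 12 was low for Isg15 (522 CPM, next 1170) and Gbp2 (320, next 671). ConA mouse 5 was high for Irgm2 (48.9 CPM, next 27.4) and ConA mouse 11 for Bst2 (366, next 248). ANIT mouse 4 was high for Tgtp2 (8.65 CPM, next 1.09) and ANIT mouse 1 for Bst2 (139, next 89.3). GAL mouse 4 was high for Irf1 (37.1 CPM, next 26.6).

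The response to ConA differed from that to another compound, by the test of the difference itself, in 34 members (ANIT), 30 (APAP), 30 (MDA), 30 (TAA), 24 (CCl4) and 22 (GAL), each higher with ConA. The shares of all 18781 genes called were 21.2%, 16.6%, 24.2%, 9.06%, 16.8% and 16.8%, in that order. The GAL count was 10 with library totals alone.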

How the results depend on the processing

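Groups of 2 saline mice limit ConA, CCl4 and GAL most. Without 1 of them (CIV against Ctrl included) the lone mouse is assumed to vary like the other group. Leaving out 1 treated or saline mouse at a time, or Ctrl mouse 16 (for the Ctrl ranges, 1 of Ctrl mice 1 to 4), but no other Ctrl mouse, members called numbered 22 to 31 (ANIT), 15 to 20 (APAP), 21 to 29 (MDA), 18 to 25 (TAA), 1 to 4 (CCl4), 0 to 14 (GAL), 23 to 30 (ConA), 0 to 1 (CIV) and 7 to 10 (Ctrl ranges). Shares of all genes called in these fits were 17.5% to 28.1% (ANIT), 27.2% to 32.4% (APAP), 28.8% to 34.8% (MDA) and 45.2% to 51% (TAA). For the Ctrl ranges they were 0.973% to 1.4%, and for CCl4, GAL and ConA 18% to 36.2%, 9.49% to 42.5% and 23.9% to 36.1%. Those of CCl4, GAL and ConA include fits with 1 control. Type I medians ranged from -2.48 to -2.08 (ANIT), -1.04 to -0.77 (APAP), -1.90 to -1.38 (MDA), -1.11 to -0.56 (TAA), -0.21 to 0.24 (CCl4), 0.60 to 0.91 (GAL) and 3.60 to 4.11 (ConA). Interferon gamma medians ranged from -1.58 to -1.0, -1.07 to -0.43, -1.21 to -1.03, -1.52 to -1.12, -0.75 to -0.12, 0.22 to 0.46 and 3.42 to 3.95, in that order.

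With library totals alone the counts were 9 (APAP), 2 (CCl4), 22 (GAL), 31 (Ctrl ranges) and 10 (ConA minus GAL), and the medians 1.48 and 1.13 (GAL, type I and gamma) and 3.30 and 2.92 (ConA). With all 17 vehicles the CCl4 count was 9, the ConA medians 4.51 and 4.21, and the GAL type I median 0.47. DESeq2 called 28 (Ctrl ranges), 1 (ANIT against MDA) and 5 (APAP against TAA), and no filter gave 11 for the Ctrl ranges. With only the 2 treated groups, APAP against TAA gave 0.

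Same-numbered mice correlated at -0.0914 to 0.246 between the gavage compounds and Ctrl and at -0.318 to -0.0134 between ANIT and MDA, so they were not treated as pairs. With the replicate block the counts were 4 (ANIT), 0 (APAP), 11 (TAA) and 0 (APAP against TAA). The shares of all genes called in the block fits are not given. A loss among the members therefore cannot be told from a general loss of calls. The block's type I medians were -1.16 (ANIT) and -0.35 (APAP), and its gamma medians -0.35 (ANIT), 0.05 (APAP), -0.78 (MDA) and -0.90 (TAA). CCl4 and ConA, against their saline mice, and CCl4 against GAL share 1 number, so no block was run there. ANIT above 4 and both saline groups within 1 to 4 had no mice to compare.

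With number range as a covariate, chosen after seeing the data, ANIT had 10 calls and medians of -0.92 and -0.31, the APAP type I median was -0.61 and the MDA gamma median -0.83. Within mice 1 to 4, where 34 members were tested for ANIT, 37 for APAP and 33 for MDA, the counts were 7 (ANIT), 1 (APAP), 11 (MDA) and 8 (TAA). The medians there were -0.94 and -0.20 (ANIT), 0.06 and 0.70 (APAP), -0.42 (MDA, gamma) and -0.25 (TAA, type I). Above 4, APAP had 31 calls and medians of -1.50 and -1.46. Within mice 1 to 4, Irf7 (0.15), Gbp7 (0.20) and Tgtp2 (0.04) with APAP and Irf7 (0.13), Gbp3 (0.27) and Xaf1 (0.16) with TAA were the called members that changed sign, as was Ifi35 (-0.35, ConA minus GAL) with library totals alone.

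The wider classes gave type I medians of -1.68 (ANIT), -0.95 (MDA), 0.38 (GAL) and 1.90 (ConA). limma on log2(CPM + 1) gave -1.22 (ANIT), -0.63 (APAP) and -0.91 (MDA) for type I and -0.73 (ANIT), -0.69 (MDA) and -0.70 (TAA) for gamma. The cause of these shifts was not tested. Counting only members called with the settings of the report (330 calls over 19 comparisons), 2500 values under the alternatives kept direction and side of the threshold, 427 lost the call and 7 changed sign. Members not called there are outside this tally.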
